A study of Homo sapiens with 44 samples.

Results

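Interferon-stimulated genes are the genes that cells switch on after interferon binds its receptors, and many of their products act against viruses. The list described here held 45 well-known members, taken by symbol from both expression tables of the series. All 45 were found among the 25690 genes of the HEK293-GR table and among the 25689 symbols of the A549 table, where the transcript with the most reads stood for each gene. By role the list held 5 sensors of viral nucleic acid, 4 IFIT proteins, 6 genes of the OAS, PKR and nuclease group, 7 interferon-induced GTPases, 4 genes of ISG15 conjugation, 6 membrane and mitochondrial proteins, 6 genes of ubiquitin, ADP-ribose and nuclear body biology, the transcription factor STAT2, and 6 others.

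The study asked how the cofactor IRF2BP2 shapes the interplay of glucocorticoid and tumour necrosis factor (TNF) signals in 2 human cell lines. A549 is a lung adenocarcinoma line, and HEK293-GR is an embryonic kidney line that expresses the glucocorticoid receptor constantly, which limits it as a model of cells with a receptor of their own. All RNA samples were grown in steroid-depleted medium and carried 20 nM of a small interfering RNA pool for 72 h, either siIRF2BP2, against IRF2BP2, or the non-targeting control siNON. The last 6 h were spent with ethanol vehicle or 100 nM dexamethasone (dex, a synthetic glucocorticoid), and in A549 also with 10 ng/ml TNF or with dex and TNF together. A549 thus had 8 groups of 3 samples, and its table gives 1 pooled column per group. HEK293-GR had 4 groups of 4 labelled replicates, of which replicates 1 to 3 have a column and were used, and replicate 4 was not analysed here. The design text calls the replicates biological, but the labels do not say that they were separate cultures, so p-values may measure technical spread alone. No group received interferon.

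Type I and type III interferons signal through receptor-bound JAK kinases to a complex with STAT2 and IRF9 that binds the interferon-stimulated response element in the promoters of its target genes, whereas interferon gamma works mainly through another element, GAS. TNF works mainly through NF-kB, and can raise interferon-stimulated genes through induced IRF1 or low levels of interferon beta. Glucocorticoids are known to repress many inflammatory and interferon-driven genes. IRF2BP2 was first described as a corepressor that binds IRF2.

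Response element cores stood near the start of most members with a sequence at hand. RefSeq windows of GRCh38.p14, from 250 bases before to 50 after each gene's start, were found for 36 of the 45, and none for DHX58, IFIT2, OAS2, OASL, MX2, GBP2, GBP5, USP18 and TRIM22. The core was searched as GAAA, any 2 bases and GAAA on both strands, where hits could overlap each other. It was present in 24 of 36 members (66.7%) and in 996 of all 27305 windows (3.65%). A GAS motif (TTCNNNGAA) was present in 22.2% of the 36 and 7.88% of all windows. A loose NF-kB motif (GGG, any 5 bases and CC) stood in 55.6% of the 36 against 57.99% of all windows, and the glucocorticoid spacer motif ACANNNTGT in 5.56% against 5.45%. The stretches below come from genes of 6 roles and show how the number, spacing and strand of the cores vary. They read 5′ to 3′ on the strand of the gene, all lie before the start site, and capitals mark the core or, where it lies on the other strand, its reverse complement.
DDX60: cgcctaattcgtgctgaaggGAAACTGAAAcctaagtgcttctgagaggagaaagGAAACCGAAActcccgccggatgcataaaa
IFIT1: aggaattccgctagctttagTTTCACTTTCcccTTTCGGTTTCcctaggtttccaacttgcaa
IFIT3: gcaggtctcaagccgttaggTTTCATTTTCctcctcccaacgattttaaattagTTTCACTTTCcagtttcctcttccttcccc
ISG20: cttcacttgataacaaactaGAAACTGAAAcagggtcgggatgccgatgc
GBP1: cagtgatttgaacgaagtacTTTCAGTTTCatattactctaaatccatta
ISG15: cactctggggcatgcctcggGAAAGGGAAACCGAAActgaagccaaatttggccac
HERC5: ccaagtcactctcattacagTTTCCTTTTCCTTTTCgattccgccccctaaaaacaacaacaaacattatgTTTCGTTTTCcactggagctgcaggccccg
PARP14: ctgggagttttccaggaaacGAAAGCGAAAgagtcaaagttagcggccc
By position on GRCh38.p14 these stretches are chr4:168318776-168318860 (minus strand), chr10:89392487-89392549, chr10:89327821-89327904 and chr15:88638927-88638976 (plus strand), chr1:89065306-89065355 (minus strand), and chr1:1013364-1013419, chr4:88456974-88457074 and chr3:122680790-122680838 (plus strand). ISG15 holds 2 cores that overlap, HERC5 holds 3, and GBP1, ISG20 and PARP14 hold 1 each. A match in letters describes the window and is not a measured binding site.

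**Figure D1:**
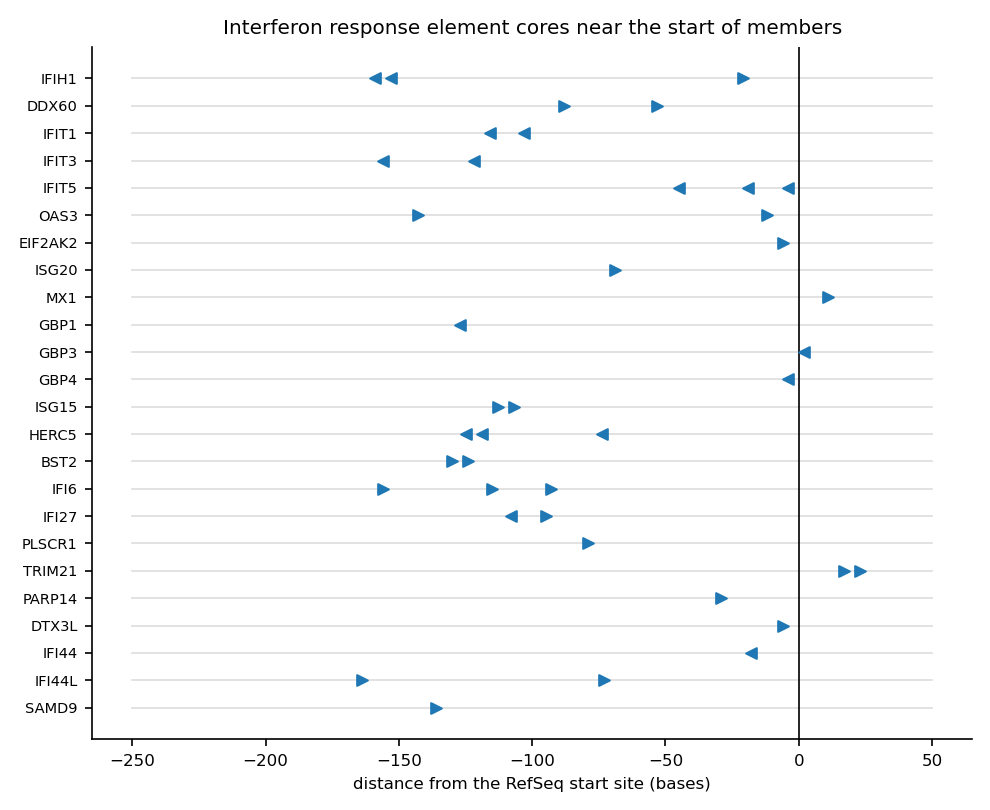
Position of each response element core in the windows of the 24 members that hold one. The x axis is the distance in bases of its first base from the RefSeq start site, and arrows pointing right lie on the gene's strand and arrows pointing left on the other. The 41 hits have a median position of -93.

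Several members sit side by side in the genome, on build hg19 as the A549 table gives it. IFIT2, IFIT3, IFIT1 and IFIT5 span chr10:91061706-91180759, GBP3, GBP1, GBP2, GBP4 and GBP5 span chr1:89472360-89738544, and OAS1, OAS3 and OAS2 span chr12:113344739-113449528. PARP9 and DTX3L overlap by 338 bases on opposite strands. Whether counting used strand is not given in the sources used here, so reads in that overlap cannot be told apart. USP18 has a near-identical copy, USP41, so its values are uncertain where reads were shared between them.

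The HEK293-GR libraries held 18.2 to 28.5 M tags each and the A549 pooled columns 35.8 to 56.9 M (M, 1e6). The targeted gene was lower in every knockdown group. In HEK293-GR its level was 22.9 ± 2.41 FPKM (fragments per kilobase of exon and per M tags, SD, n = 3) with siNON and 12.7 ± 0.96 FPKM with siIRF2BP2 under vehicle, and 20.0 ± 0.605 against 10.4 ± 0.752 FPKM under dex. In A549 it went from 156 to 138 reads per M tags (RPM) under vehicle and from 138 to 112 RPM under TNF, and the authors' deposited table gives IRF2BP2 log2 fold changes of -0.31 to -0.66 over the 4 treatments. A549 columns were rich in the keratins KRT8 and KRT18. The 8 blood markers summed to 45.4 to 59.7 RPM over the A549 columns, mostly from the macrophage gene CD68, at 35.1 to 49.98 RPM. Of the others, the leukocyte gene PTPRC and the T cell gene CD3E were at 0 in both TNF columns. Myeloid genes moved in both directions. ITGAM went from 1.75 RPM with vehicle to 4.89 with TNF with siNON and from 2.55 to 7.15 with siIRF2BP2. CD14 went from 3.24 to 2.40 RPM and from 5.12 to 2.93, and LYZ from 2.69 to 2.08 RPM and from 2.03 to 1.26. The part of the blood markers in the members' values was not tested. HEK293-GR libraries expressed ZIC2 and LIN28B, but the kidney gene PAX2 was near 1 FPKM. In bulk RNA, fewer cells of a type and less RNA per cell cannot be told apart.

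TNF raised nearly the whole list in A549 cells. With siNON, 42 of 45 members rose and none fell by the authors' deposited table (false discovery rate, FDR, under 0.05), with a median log2 fold change of 1.93. For comparison, 6.62% of all symbols and 11.3% of the expressed symbols, those at a mean of at least 0.5 RPM, rose in that contrast, and 6.14% of all symbols fell. The 3 members that did not pass were IFI6, a mitochondrial protein that limits cell death, the RNA-degradation activator OAS1, and USP18, a protease that takes ISG15 off its targets. With siIRF2BP2, 44 of 45 rose, with a median of 2.35. In that arm 12.3% of all symbols and 20.8% of the expressed ones rose, and 12.3% of all fell. With both small interfering RNAs 41 members passed, and the share of all symbols that did so was not computed. The A549 lengths are genomic spans, so levels are compared within a gene and not between genes.

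GBP1, a guanylate-binding GTPase that attacks pathogen-containing vacuoles, had the largest log2 fold change of the list with TNF in both arms. It stood at 0.248 RPM with siNON and vehicle (95% exact Poisson interval 0.135 to 0.413, which like all such intervals covers counting error only), 0.248 under dex, 21.6 under TNF (20.2 to 22.99) and 11.7 under dex and TNF. With siIRF2BP2 GBP1 stood at 0.353, 0.222, 61.1 and 34.2 RPM in the same order of treatments. The columns without TNF were thus all below 0.4 RPM, and the knockdown TNF column was the highest. The authors' deposited table gives GBP1 a TNF log2 fold change of 6.49 with siNON and 7.54 with siIRF2BP2. GBP4 rose by 4.74 and GBP2 by 2.38 on the log2 scale with siNON in the authors' deposited table, and all 7 GTPases rose.

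MX1, a dynamin-like GTPase that blocks influenza and other viruses, followed a similar course. Its siNON levels were 1.51 RPM with vehicle, 0.773 with dex, 18.4 with TNF and 3.32 with both agents. With siIRF2BP2 they were 2.44, 2.90, 45.8 and 9.86 RPM. MX1 was thus much lower with both agents than with TNF alone in both arms, and each knockdown column lay above its siNON counterpart. The MX1 log2 fold changes for TNF in the authors' deposited table were 3.66 and 4.34, and for dex added to TNF -2.47 and -2.21.

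Sensors and IFIT proteins rose with TNF in every case. IFIH1 (MDA5), a sensor of long double-stranded RNA, went from 3.51 RPM with vehicle to 35.4 with TNF with siNON and from 8.42 to 69.4 with siIRF2BP2. DDX58 (RIG-I), a sensor of short viral RNA ends, went from 13.4 to 48.7 RPM with siNON and from 18.2 to 76.99 with siIRF2BP2. IFIT3, which with its relatives binds foreign RNA and slows its translation, went from 3.63 to 34.5 RPM and from 7.44 to 65.9. IFIT5 moved least in that family, from 14.3 to 23.1 RPM with siNON, and the authors' deposited table gives log2 fold changes from 0.72 for IFIT5 to 3.34 for IFIT3.

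Members with few reads before treatment also rose. RSAD2 (viperin), which makes a chain-terminating nucleotide, had 4 reads with siNON and vehicle and 43 with TNF, and CMPK2, its genomic neighbour, had 22 and 213. XAF1, a partner of apoptosis inhibitors, had 5 and 103 reads, and OAS2 had 25 and 263. By contrast OAS1 was already abundant, at 126 RPM with vehicle and 130 with TNF with siNON. OAS3 rose from 92.4 to 205 RPM. The members therefore ranged in the authors' deposited table from a log2 fold change of 0.02 for IFI6 to 6.49 for GBP1.

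**Figure D2:**
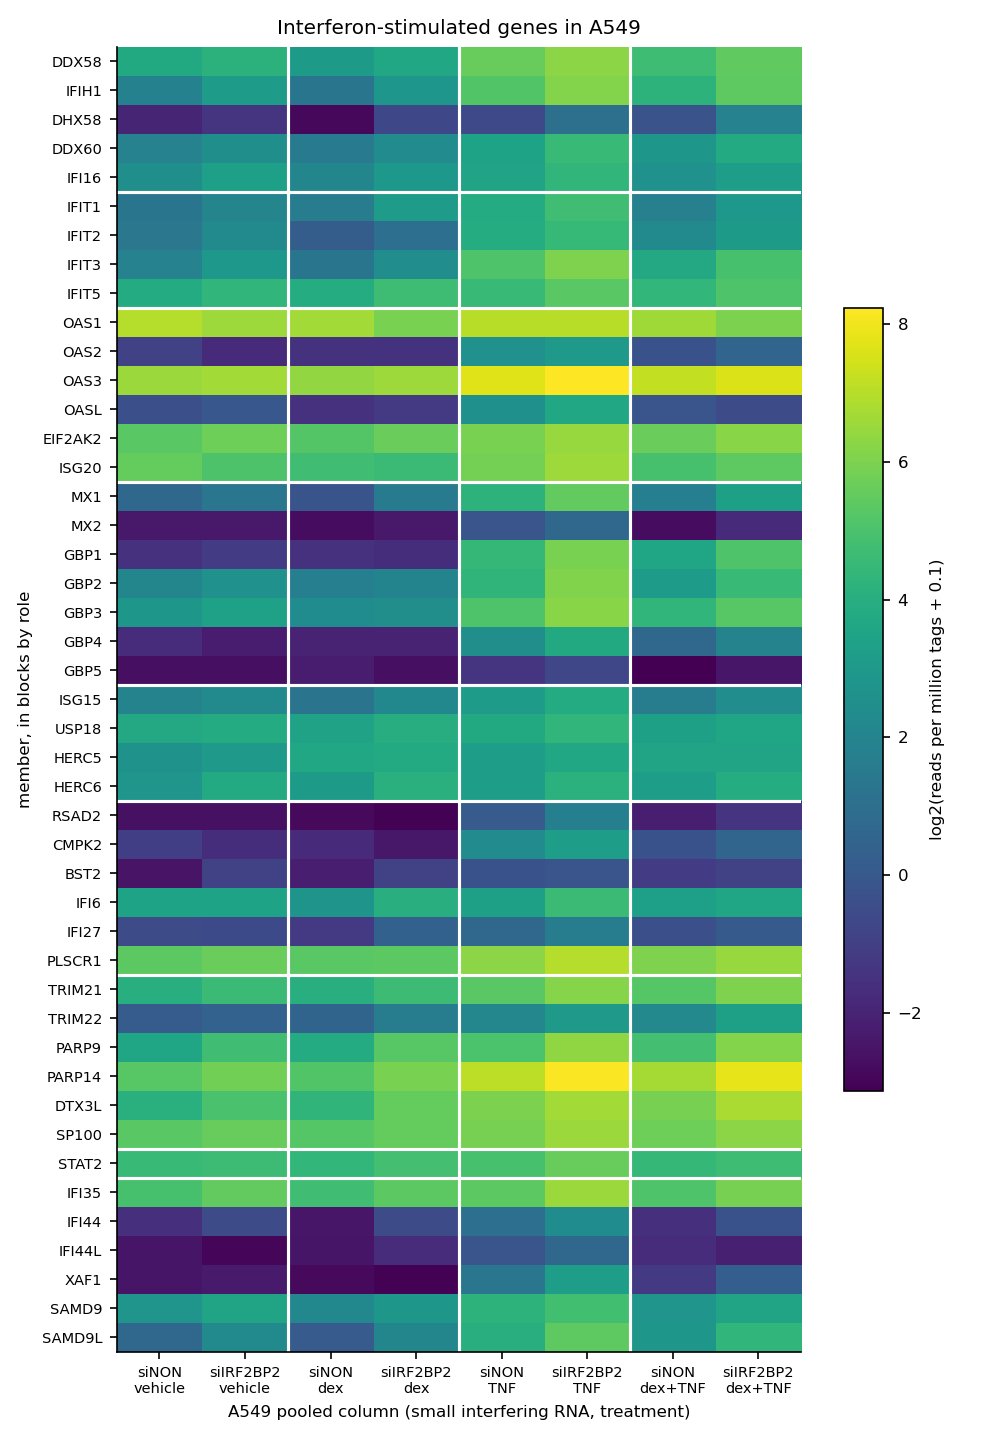
Level of the 45 members in the 8 pooled A549 columns, as log2 of RPM plus 0.1, with members in blocks by role and columns by treatment. Brighter colours are higher levels, and 40 of 45 members are highest with siIRF2BP2 and TNF.

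Dex pulled most TNF-raised members back down. Comparing dex and TNF with TNF alone, 31 members fell and none rose with siNON, with a median log2 fold change of -0.93, by the authors' deposited table, and 4.83% of all symbols (8.29% of the expressed) fell and 6.11% rose. With siIRF2BP2, 36 fell and 2 rose, with a median of -0.95, against 7.35% and 12.6% that fell and 8.7% that rose. In both arms 31 members fell, and the share of all symbols that did so was not computed. The typical member kept 52.6% of its TNF level in RPM with siNON and 50.2% with siIRF2BP2 (medians over 45). These contrasts share the TNF column with the TNF response above, so the values are given side by side.

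The fall was uneven between roles. All 7 GTPases and all 6 genes of the OAS, PKR and nuclease group fell in both arms. OASL, an OAS-like protein that boosts RIG-I, went from 5.82 RPM with TNF to 0.815 with both agents with siNON and from 12.4 to 0.588 with siIRF2BP2, and its log2 fold changes in the authors' deposited table were -2.84 and -4.37. RSAD2 went from 43 reads to 6 and from 159 to 10. MX2, an inhibitor of HIV nuclear entry, went from 35 reads to 2 and GBP5 from 12 reads to 1 with siNON, too few to size their fall. IFIT1 fell from 14.3 to 3.37 RPM and from 27.2 to 7.51.

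Other members moved by little when dex was added to TNF and did not pass the test in either arm. PARP9, an ADP-ribose reader, went from 31.9 RPM (95% exact Poisson interval 30.2 to 33.6) to 28.3 RPM (26.8 to 29.8) with siNON and from 81.5 (78.9 to 84.1) to 69.6 RPM (66.9 to 72.4) with siIRF2BP2. Its intervals lay apart in both arms, but they cover counting error only, and its FDR in the authors' deposited table was 0.467 and 0.0899. DTX3L, a ubiquitin ligase and partner of PARP9, went from 62.7 to 59.0 RPM with siNON and from 102 to 112 RPM with siIRF2BP2. TRIM21, a cytosolic antibody receptor, stood at 40.4 and 38.2 RPM with siNON and at 71.8 and 66.4 with siIRF2BP2. Of the 6 genes of the ubiquitin, ADP-ribose and nuclear body group, 1 fell with siNON and 2 fell with siIRF2BP2. DHX58 (LGP2), a regulator of RIG-I and MDA5, and TRIM22 were the 2 that rose with siIRF2BP2, with log2 fold changes of 0.88 and 0.35 in the authors' deposited table. DHX58 had 94 reads with TNF and 129 with both agents there.

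**Figure D3:**
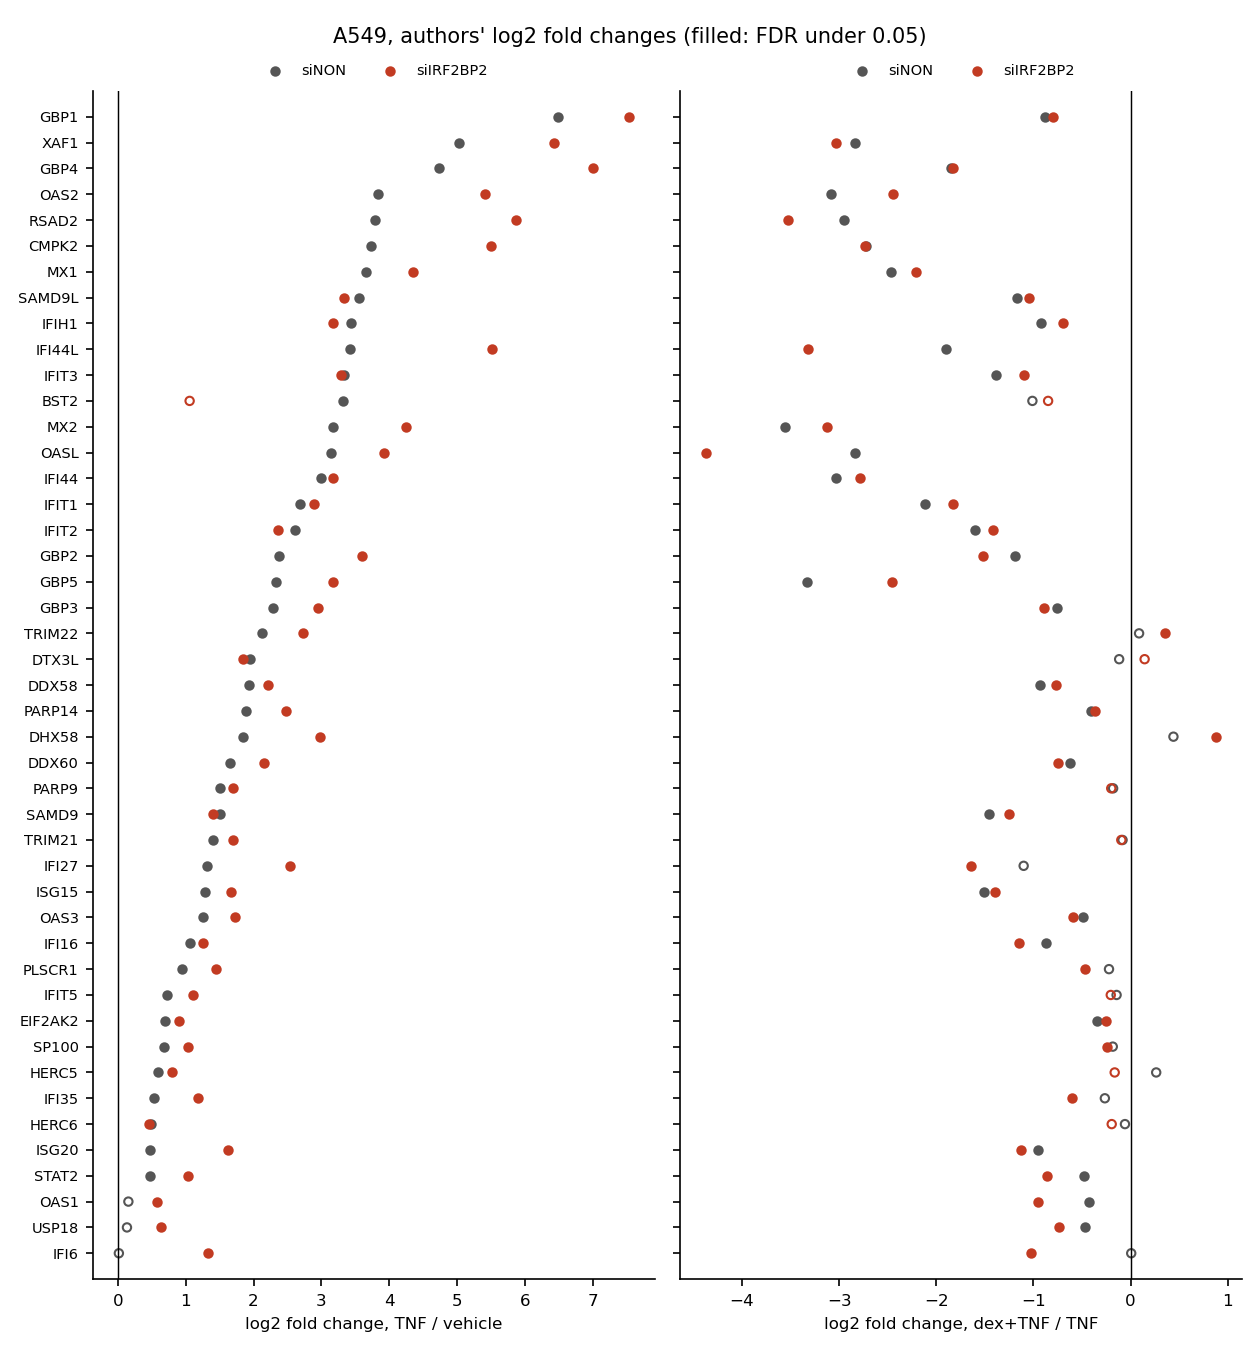
Log2 fold changes of the authors' deposited table for the 45 members in A549, for TNF against vehicle (left) and for dex with TNF against TNF alone (right), sorted by the siNON TNF response. Grey points are siNON and red points siIRF2BP2, filled where FDR was under 0.05. Nearly all points lie right of 0 on the left and left of 0 on the right, and the group around DTX3L, PARP9 and TRIM21 sits near 0 on the right.

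Members of the list were higher with siIRF2BP2 than with siNON in all 4 A549 treatments, and most members were under TNF. In either cell line, loss of IRF2BP2 and other effects of the siIRF2BP2 pool cannot be told apart. By the authors' deposited table, 15 members rose and 2 fell under vehicle (10.6% of all symbols and 18.2% of the expressed rose, and 11.8% of all fell), with a median log2 fold change of 0.33. Under dex 22 rose and 1 fell, with a median of 0.56 (9.95% and 17.2% rose, 10.8% fell). Under TNF 41 rose and none fell, with a median of 0.83 (12.8% and 22.2% rose, 12.5% fell). Under dex and TNF 31 rose and 1 fell, with a median of 0.77 (11.7% and 20.3% rose, 11.8% fell). The median over all expressed symbols was 0.01 to 0.02 in each, and the 4 contrasts share no column.

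The 11 members that rose with knockdown under every treatment were IFIH1, IFI16, IFIT1, IFIT3, HERC6, TRIM21, PARP9, PARP14, DTX3L, IFI35 and SAMD9L. The share of all symbols that rose under every treatment was not computed. SAMD9L, a translation-blocking antiviral protein, stood at 1.48, 1.01, 16.2 and 7.23 RPM with siNON in the order vehicle, dex, TNF and both, and at 4.63, 4.102, 43.2 and 20.6 RPM with siIRF2BP2. PARP9 stood at 11.8, 14.3, 31.9 and 28.3 RPM with siNON and at 27.1, 39.0, 81.5 and 69.6 RPM with siIRF2BP2. Every knockdown column of both genes lay above its siNON column. PARP14, an ADP-ribosyltransferase, went from 138 to 291 RPM under TNF and from 104 to 224 RPM under both agents. IFI35, which stabilises signalling complexes with NMI, went from 41.2 to 92.5 RPM under TNF.

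Under TNF the largest knockdown rises in the authors' deposited table were XAF1 with a log2 fold change of 1.85, DHX58 with 1.74, GBP2 with 1.66 and RSAD2 with 1.66. GBP2 went from 19.8 to 66.7 RPM. The 4 members that did not pass under TNF were OAS1, OAS2, GBP5 and BST2. GBP1, GBP2, GBP3 and GBP4 all rose with knockdown under TNF and under both agents, whereas under dex alone none of the 4 passed. Under dex GBP1 had 14 reads with siNON and 8 with siIRF2BP2, and GBP4 had 8 and 5, too few to size a change. OAS1 went the other way: with siNON it stood at 126, 101, 130 and 96.9 RPM in that order of treatments, and with siIRF2BP2 at 93.7, 62.3, 128 and 64.1 RPM. Its log2 fold changes in the authors' deposited table were -0.53, -0.79, -0.11 and -0.63, and it passed in all but TNF. ISG20, an RNA exonuclease, was lower with knockdown under vehicle (47.1 to 33.4 RPM) and higher under TNF (58.7 to 95.9 RPM).

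Low counts set the precision of some calls. BST2 (tetherin), which holds budding virions at the membrane, had the largest vehicle knockdown log2 fold change in the authors' deposited table, 2.37, on 4 reads with siNON and 16 with siIRF2BP2. Their intervals were 0.0192 to 0.18 RPM and 0.244 to 0.693 RPM. DHX58 under dex, at 3.51 in the authors' deposited table, rested on 2 reads against 19. Other genes moved with knockdown in the same columns: 8 of 9 A549 markers were lower and 1 higher under TNF, and the fibroblast marker COL1A1 went from 36.3 to 64.0 RPM under TNF and from 39.5 to 91.7 RPM under vehicle. The summed level of the 4 fibroblast markers was 28.9 to 42.9 RPM over the siNON columns and 52.6 to 93.3 RPM over the knockdown columns, with 1 of the 4 higher and 1 lower under TNF, and DCN at 0 in both vehicle columns. The part of these changes in the members' values was not tested.

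**Figure D4:**
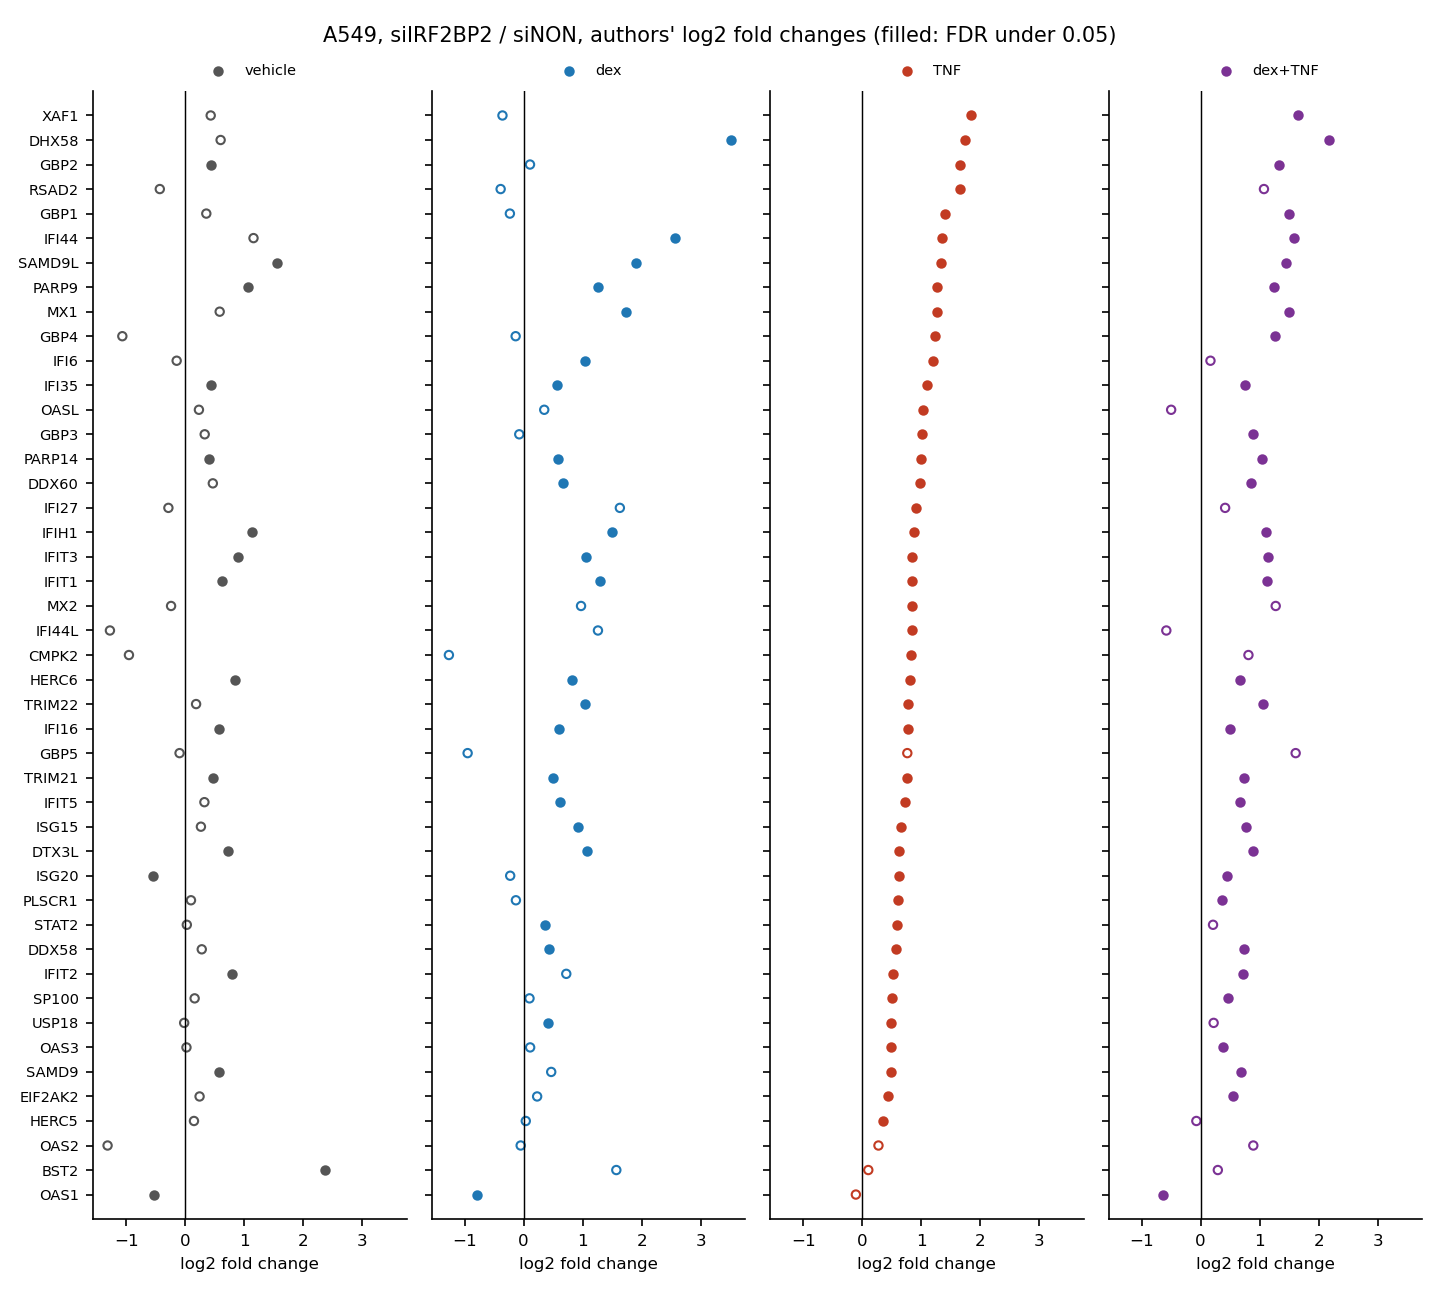
Log2 fold changes of siIRF2BP2 over siNON for the 45 members in A549 under each treatment, from the authors' deposited table, sorted by the TNF panel and filled where FDR was under 0.05. Filled points number 17 with vehicle, 23 with dex, 41 with TNF and 32 with the 2 agents together.

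The TNF log2 fold change of the authors' deposited table was higher with siIRF2BP2 than with siNON in 37 of 45, with a median difference of 0.50, while the median over all expressed symbols was 0.01. ISG20 went from 47.1 to 58.7 RPM with siNON and from 33.4 to 95.9 RPM with siIRF2BP2. IFI6 went from 10.9 to 10.0 RPM and from 10.8 to 24.3 RPM. Some wide differences in either direction rested on few vehicle reads. RSAD2, at 2.08, had 4 vehicle reads with siNON and 2 with siIRF2BP2, and BST2, at -2.27, had 4 and 16. For dex added to TNF, the difference between the arms had a median of -0.01, with 21 of 45 above 0. Pooled columns allow no test of these differences between responses.

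Dex alone moved fewer members than TNF did in A549. With siNON, 1 rose and 8 fell by the authors' deposited table, and 4.1% of all symbols rose and 2.85% fell. The median log2 fold change was -0.33, with 13 of 45 members above 0, against -0.01 over the expressed symbols. At an FDR under 0.01 the count was 4, 1 higher and 3 lower. HERC5, the ligase that attaches ISG15, was the 1 that rose, from 6.38 to 12.3 RPM. IFIT2 fell from 2.50 to 1.06 RPM, MX1 from 1.51 to 0.773 RPM and ISG20 from 47.1 to 27.1 RPM. With siIRF2BP2, 7 rose and 8 fell by the authors' deposited table (8.74% and 6.96% of all symbols), and IFIT1 went from 4.03 to 8.48 RPM there and from 2.37 to 3.10 RPM with siNON, where it did not pass. Both agents against vehicle left 25 members higher and 2 lower with siNON by the authors' deposited table (7.65% of all symbols rose and 6.27% fell), and 29 higher and 1 lower with siIRF2BP2 (14.1% and 13%). TNF added to dex raised 28 members in each arm and lowered none, against 4.19% and 11.1% of all symbols that rose and 2.64% and 8.72% that fell.

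The wider pathway in A549 was described from lists of other genes. Interferon ligands other than IFNE had 3 reads or fewer in every column. IFNB1 had 1 read in the siNON TNF column, 3 in the knockdown TNF column and 0 in the other 6. None of the 10 ligands passed as higher with TNF, but apart from IFNE their reads were too few to show a rise. IFNE, an epithelial type I interferon, stood at 0.944 to 2.15 RPM. Of 6 receptor chains 5 rose with TNF with siNON by the authors' deposited table, against 6.62% of all symbols and 11.3% of the expressed. Among them was IFNAR2, from 28.8 to 114 RPM. Among signal transducers, JAK2 rose from 11.4 to 27.2 RPM and IRF9 from 18.2 to 25.8 RPM. IRF1, an activator of interferon-stimulated genes, rose from 18.2 to 182 RPM with siNON and from 24.1 to 212 RPM with siIRF2BP2, and its knockdown difference under TNF, 0.13 in the authors' deposited table, did not pass. IRF9 under TNF went from 25.8 to 49.3 RPM with knockdown.

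In a second list of 30 other interferon-induced genes, 21 rose and none fell with TNF with siNON by the authors' deposited table, against 6.62% and 6.14% of all symbols. With knockdown under TNF 22 rose and 1 fell, against 12.8% and 12.5%. When dex was added to TNF with siNON 2 rose and 6 fell, against 6.11% and 4.83%. The chemokine CXCL10 went from 1 read to 60 with TNF with siNON and from 0 to 357 with siIRF2BP2, and stood at 1.23 and 7.32 RPM when dex was added, close to its TNF levels of 1.39 and 7.54 RPM. TAP1, the peptide transporter of antigen presentation, rose when dex was added to TNF, from 135 to 208 RPM with siNON.

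In HEK293-GR cells, which were not given TNF, 33 of 45 members had enough reads to test (at least 10 reads in at least 3 libraries). The 12 others, IFI16, OAS1, OAS2, MX2, GBP1, GBP2, GBP3, RSAD2, TRIM22, IFI44, XAF1 and SAMD9L, had 2 to 72 reads over all 12 libraries. FPKM here are per exon length, so levels can be compared between genes. The mean over 12 libraries was at least 5 FPKM for 11 members and under 1 FPKM for 12 of those tested. With siNON and vehicle the highest members were USP18 at 18.9 ± 0.677 FPKM, IFI6 at 12.7 ± 1.31, EIF2AK2 at 11.9 ± 1.17, PLSCR1 at 9.07 ± 0.753, IFIT5 at 8.81 ± 2.22 and STAT2 at 8.24 ± 0.941 (SD, n = 3). IFI6 and EIF2AK2 lay within their spread of each other, as did PLSCR1, IFIT5 and STAT2. All 10 interferon ligands fell short of the test.

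Knockdown raised part of the list in HEK293-GR, and more members and more of all genes passed under dex than under vehicle. Under vehicle 5 members rose and 1 fell by limma (adjusted p under 0.05), against 8.0% and 7.48% of the 15594 genes tested. Under dex 15 rose and 2 fell, against 22.4% and 17.3%, and the median log2 fold change of the 33 tested members was 0.31 against 0.00 over all genes. The vehicle count rested on the library taken. It was 3 of 33 with replicate 1 of the siNON vehicle group left out, where 1173 of 15594 genes were called. With replicate 3 of that group left out it was 12, where 4815 genes were called. The dex count was 9 of 33 without siIRF2BP2 dex replicate 1, where 4310 of 15594 genes were called. Without siNON dex replicate 1 it was 11, where 4781 genes were called. IFI35 alone kept its vehicle call in all 11 limma alternatives, and under dex 9 of 17 members did: IFIH1, EIF2AK2, ISG20, HERC5, HERC6, PARP14, DTX3L, STAT2 and IFI35.

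IFI35 read 7.62, 8.45 and 7.19 FPKM with siNON and 11.7, 11.1 and 12.2 FPKM with siIRF2BP2 under vehicle, and 6.88, 6.16 and 7.91 against 10.5, 10.1 and 11.1 FPKM under dex. The knockdown libraries lay above all siNON libraries in both treatments. Its log2 fold changes were 0.59 ± 0.092 (SE) under vehicle and 0.60 ± 0.092 under dex, with limma adjusted p of 0.000878 and 0.000335. EIF2AK2 (PKR), the kinase that halts translation on double-stranded RNA, read 10.6, 12.1 and 12.9 FPKM with siNON and 14.8, 15.8 and 14.98 FPKM with siIRF2BP2 under vehicle, and 10.5, 9.37 and 9.22 against 13.98, 13.1 and 13.3 FPKM under dex. Here too the groups did not overlap, with log2 fold changes of 0.36 ± 0.08 (limma adjusted p = 0.0084) and 0.47 ± 0.08 (limma adjusted p = 0.000615). DTX3L read 4.65, 5.32 and 5.06 FPKM against 6.21, 6.41 and 6.44 under vehicle, and 4.09, 4.14 and 4.54 against 5.88, 6.03 and 6.07 FPKM under dex.

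Under dex, PARP14 read 3.92, 3.94 and 3.52 FPKM with siNON and 7.01, 6.17 and 6.36 with siIRF2BP2, a log2 fold change of 0.76 ± 0.151 (limma adjusted p = 0.00149). ISG20 read 1.72, 2.05 and 1.56 against 2.86, 3.46 and 3.02 FPKM, a log2 fold change of 0.78 ± 0.163 (limma adjusted p = 0.00207). All knockdown libraries of both genes lay above the siNON libraries. HERC5 and HERC6, neighbouring ligase genes on chromosome 4, rose by 0.38 and 0.47 on the log2 scale under dex by limma. IFI44L was called as higher, but its libraries overlapped, at 0.017, 0.04 and 0.057 FPKM against 0.141, 0.047 and 0.173.

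STAT2, a subunit of the complex that carries the interferon signal to the nucleus, went down with knockdown in HEK293-GR. It read 7.90, 9.31 and 7.53 FPKM with siNON and 6.33, 6.78 and 6.89 with siIRF2BP2 under vehicle, and 11.05, 10.9 and 11.1 against 7.76, 8.43 and 8.20 under dex. The groups were apart in both, with log2 fold changes of -0.30 ± 0.083 (limma adjusted p = 0.0249) and -0.44 ± 0.083 (limma adjusted p = 0.00121). In A549 STAT2 was higher with knockdown under TNF, at 47.8 against 30.1 RPM, and under dex, at 28.8 against 21.0 RPM. The 2 tables were made separately, and that contrast between lines was not tested. TRIM21 also fell under dex in HEK293-GR, from 5.92 ± 0.0815 to 4.72 ± 0.264 FPKM (SD, n = 3).

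The dex response in HEK293-GR was mixed. With siNON 6 members rose and 4 fell by limma, against 10.9% and 9.82% of genes. Those counts rested on single libraries, with 4 to 11 called when 1 library was left out. There were 4 of 33 without siNON dex replicate 2 or 3, where 2296 and 1976 of 15594 genes were called. There were 5 without siNON dex replicate 1, siNON vehicle replicate 2 or siNON vehicle replicate 3, with 2299, 2990 and 2456 genes. There were 11 without siNON vehicle replicate 1, with 3909 genes. IFIT3, GBP5, USP18 and STAT2 kept their call in all 11 limma alternatives. With siIRF2BP2 5 rose and none fell by limma, against 5.86% and 4.59% of genes. At an unadjusted p under 0.05 there were 10 of 33 members and 3126 of 15594 genes. The count of 5 at a limma adjusted p under 0.05 became 2 without siIRF2BP2 dex replicate 1, where 1250 genes were called. It was 3 without siIRF2BP2 dex replicate 2 or siIRF2BP2 vehicle replicate 1, where 1264 and 1342 genes were called.

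GBP5, a guanylate-binding protein that assembles inflammasomes, read 0.155, 0.079 and 0.135 FPKM with siNON and vehicle and 0.477, 0.306 and 0.413 with dex, a log2 fold change of 1.16 ± 0.201 on the scale of log2 FPKM plus 0.1 (limma adjusted p = 0.000526). With siIRF2BP2 it read 0.1, 0.093 and 0.07 and then 0.42, 0.394 and 0.269 FPKM. The dex libraries lay above the vehicle libraries in both arms, from 6 to 14 reads up to 26 to 39. IFIT3 read 0.244, 0.187 and 0.213 FPKM with siNON and vehicle, 0.366, 0.629 and 0.613 with dex, 0.268, 0.502 and 0.572 with siIRF2BP2 and vehicle, and 0.946, 1.01 and 0.765 with siIRF2BP2 and dex. It was thus called as higher with dex in both arms and with knockdown in both treatments. The knockdown call was kept in 4 of 11 limma alternatives under vehicle and in 7 of 11 under dex. The dex call with siIRF2BP2 was kept in 7 of 11. USP18 went from 18.9 ± 0.677 to 25.2 ± 0.79 FPKM with siNON (limma adjusted p = 0.000437).

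**Figure D5:**
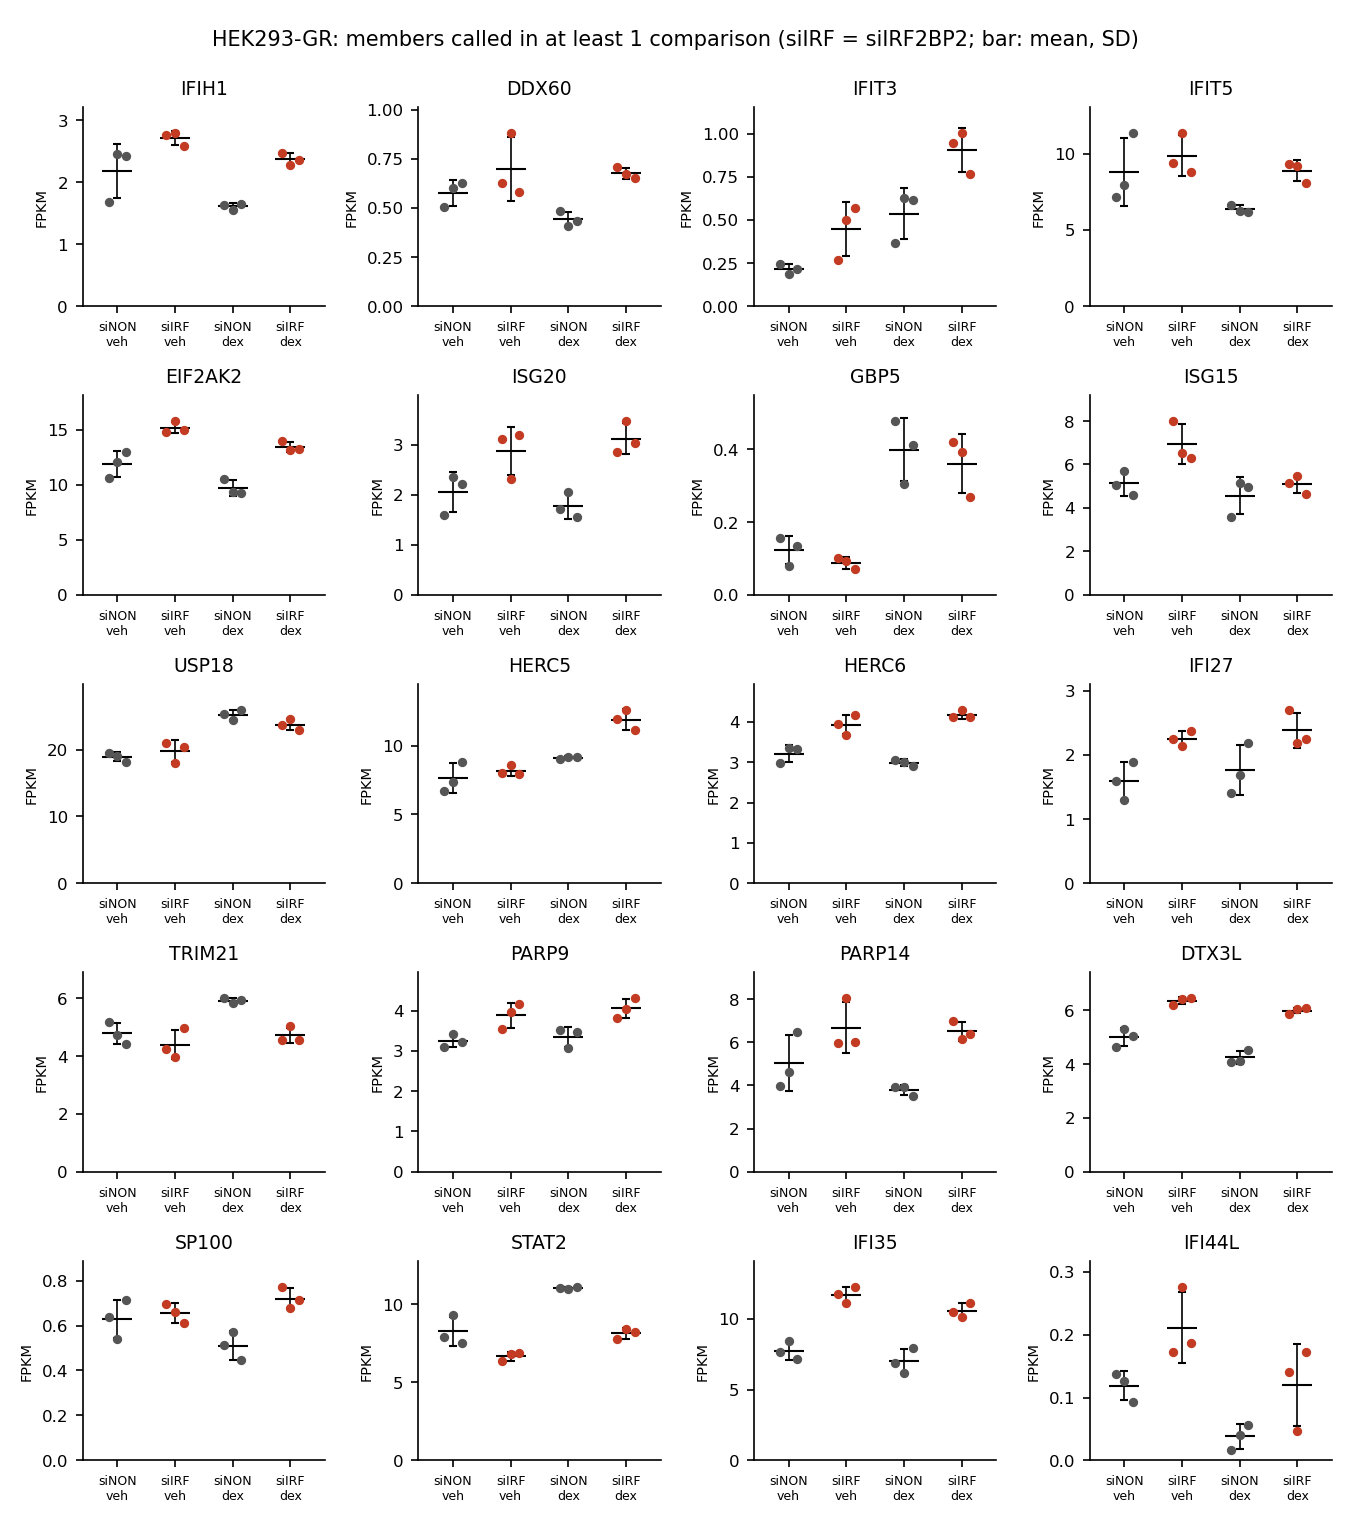
FPKM of the 20 members called in at least 1 HEK293-GR comparison, with 1 point per library, 3 per group, and bars for the mean and SD. Grey points are siNON and red points siIRF2BP2, and each panel has its own axis from 0. In the PARP14, DTX3L, EIF2AK2 and IFI35 panels the red dex points lie above all grey dex points.

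The difference between the 2 dex responses in HEK293-GR called no member by limma, with 0 of 33 members and 805 of 15594 genes at an unadjusted p under 0.05, and 0.0128% of all genes (2) were called. The smallest member adjusted p was 0.794 by limma, and the widest point estimates were -0.39 and 0.40 on the log2 scale, so this design does not show that the responses were alike.

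Among other pathway genes, dex raised JAK1 from 20.3 ± 1.19 to 40.2 ± 1.34 FPKM with siNON (SD, n = 3), and HELZ2, an interferon-induced helicase, from 2.26 ± 0.386 to 11.97 ± 0.163. Of 26 other interferon-induced genes tested, 4 rose and 6 fell with knockdown under dex by limma, against 22.4% and 17.3% of all genes tested. Among those that fell was HELZ2, at 7.42 ± 0.273 against 11.97 ± 0.163 FPKM. The blood markers summed to 6.67 to 7.87 FPKM in every group, of which PTPRC was at most 0.041 FPKM.

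IRF2BP2 peaks from chromatin immunoprecipitation in HEK293-GR after 1 h of vehicle or dex lay near a few members, a share close to that of all genes. Of 1108 vehicle peaks and 1400 dex peaks on hg19, a vehicle peak lay within 10 kb of 1 member and a dex peak within 10 kb of 2, against 2.92% and 3.59% of all genes. The vehicle peak lay 7528 bases from IFI35. A dex peak lay inside DDX60, an RNA helicase gene, at chr4:169226121-169226452, and another 8613 bases from HERC5. Within 50 kb the counts were 2 and 3 members, with ISG15 added in both conditions, against 6.04% and 7.27% of all genes. The peak score was 1 for every peak, so heights could not be compared, and each condition has 1 list whose making from 2 replicates is not given in the sources used here.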

How the data were processed

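RNA of HEK293-GR and A549 cells and IRF2BP2 chromatin immunoprecipitation of HEK293-GR cells were used. Per the submitters' processing notes, tools for RNA were FastQC, Trimmomatic 0.33, Bowtie2, TopHat2, HOMER and edgeR, and for peaks Bowtie 0.12.9, HOMER 4.10.3 and bedtools, on hg19. The authors deposited FPKM, per exon length and library in HEK293-GR and per genomic span and pooled group in A549. The log2 fold changes, p-values and FDR of A549 are the authors' deposited comparisons, and the test behind them is not given in the sources used here. The deposited peak score is 1 in every row and was not used. The 4 HEK293-GR samples labelled replicate 4 were not analysed here.

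Tags were recovered from whole-read steps of FPKM, and A549 levels were rewritten as reads per M tags (RPM). Only rows where the rounding of FPKM was small were checked, 12767 to 17701 of 48118 transcripts per A549 column. Of those, at least 99.95% of HEK293-GR values and 98.5% of A549 values lay at whole reads, within 0.01 reads plus that rounding. Reads given for long A549 spans are approximate. HEK293-GR was tested with limma 3.58.1 (R 4.3.3) on log2(FPKM + 0.1), 12 libraries in 1 fit, with Benjamini-Hochberg adjustment over 15594 genes, and was tested on simulated data. Replicate numbers were not used as a pairing in that fit, and same-number correlations ran from -0.38 to 0.26. By the naming rule, up to 12 called members per comparison with the largest log2 fold change were named, plus uncalled members to complete a role; other called members were named after their values were seen. The members, lists and rule were chosen with earlier results of these data known. The authors' own HEK293-GR comparison was an alternative chosen after seeing the data. Some genes of the pathway and marker lists are not reported here.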

Additional observations from a re-analysis of the deposited data

How the results depend on the processing

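Of the A549 counts of called members, all 14 stayed within 1.5 times when another transcript stood for each gene, and 13 of 14 at an authors' FDR under 0.01, the other being dex with siNON, with 4. From the pooled values instead of the authors' log2 fold changes, 3 medians moved by more than 0.2, to 0.83 for TNF added to dex with siNON, 2.08 for TNF with siIRF2BP2 and 0.86 for both agents against vehicle with siIRF2BP2. The authors' values lay -0.13 to 0.13 from the pooled ones at the median over symbols. No called member changed sign under any alternative run.

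In HEK293-GR, pseudocount 1, no filter and median-of-ratios scaling kept all 5 counts within 1.5 times. Fitting only the 2 groups compared gave 1 member for the knockdown under vehicle and 5 for dex with siNON. The authors' own comparison gave 1 and 6. Leaving out 1 library gave 3 to 12 for the knockdown under vehicle, 9 to 13 under dex, 4 to 11 for dex with siNON, 2 to 4 for dex with siIRF2BP2 and 0 for the difference of responses. In that order, the genes called ran from 1161 to 4815, 4139 to 5367, 1976 to 3909, 1250 to 1483 and 0 to 7 of 15594. Same-number pairs correlated above 0.1 in 4 of 18, and 2 of 12 libraries correlated best with their own number. The values thus show no pairing by number, but cannot tell whether libraries of the same number were prepared together. With the replicate block, dex with siNON gave 5 members and the other counts stayed within 1.5 times. Single libraries and reads near 10 limit HEK293-GR, and the pooled columns limit A549.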
